A study of Mus musculus with 6 samples.

Results

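The 10 genes described here are 3 genes of serotonergic neurons (Tph2, Slc6a4 and Fev) and 7 serotonin receptors (Htr1a, Htr1b, Htr2a, Htr2c, Htr4, Htr5b and Htr7), out of 24054 genes listed in the expression table. They were chosen by name, with results of these data already known, so their own values are given as a description and without a test. RNA-seq measured the substantia nigra (SN) of 3 MitoParks and 3 littermate controls, all C57BL/6 and untreated. The labels give an age of 16 to 17 weeks and the paper one of 17 weeks. MitoParks are Dat+/Cre: Tfam LoxP/LoxP, that is, Cre sits at 1 copy of the dopamine transporter gene and removes both floxed copies of Tfam (mitochondrial transcription factor A) wherever the transporter is expressed. The littermate controls are Tfam +/LoxP: Dat+/+, so they carry a floxed copy of Tfam as well but no Cre. Every library is bulk tissue from 1 mouse, the labels name the tissue only as brain, and neither the sex nor the litter of a mouse is known from the labels.

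Serotonin in the brain is made by neurons of the raphe nuclei, which lie along the midline of the brainstem, and their axons supply the SN densely. Tryptophan hydroxylase, encoded by Tph2, starts the synthesis in these neurons, the transporter encoded by Slc6a4 takes serotonin back up, and Fev (Pet1), an ETS-family transcription factor, switches on the serotonergic genes. The mRNAs of these 3 genes sit mainly in the cell bodies, whereas serotonin receptors are made by the cells that receive the signal. The receptors of families 1 and 5 couple mainly to Gi, those of family 2 to Gq, and those of families 4 and 7 to Gs.

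The sequences upstream of the serotonergic neuron genes are shown because these 3 genes were high in the same mouse and because Fev belongs to the factors that bind a GGAA core. They come from RefSeq on GRCm38.p6, run from 250 to 21 bases before the annotated start, and are written 5′ to 3′ on the strand of the gene, with GGAA, or TTCC where the core lies on the other strand, in capitals. The Tph2 window is chr10:115185043-115185272 on the minus strand, the Slc6a4 window is chr11:76998347-76998576 on the plus strand, and the Fev window is chr1:74885429-74885658 on the minus strand.
Tph2: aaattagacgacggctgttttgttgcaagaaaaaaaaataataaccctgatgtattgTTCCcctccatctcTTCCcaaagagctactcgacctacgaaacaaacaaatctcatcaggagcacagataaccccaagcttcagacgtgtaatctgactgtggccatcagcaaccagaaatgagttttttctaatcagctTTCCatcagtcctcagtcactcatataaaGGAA
Slc6a4: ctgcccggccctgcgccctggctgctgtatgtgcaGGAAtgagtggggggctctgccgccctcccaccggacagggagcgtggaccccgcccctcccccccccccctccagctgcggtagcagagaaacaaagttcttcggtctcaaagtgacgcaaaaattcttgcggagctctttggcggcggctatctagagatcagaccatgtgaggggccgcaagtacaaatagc
Fev: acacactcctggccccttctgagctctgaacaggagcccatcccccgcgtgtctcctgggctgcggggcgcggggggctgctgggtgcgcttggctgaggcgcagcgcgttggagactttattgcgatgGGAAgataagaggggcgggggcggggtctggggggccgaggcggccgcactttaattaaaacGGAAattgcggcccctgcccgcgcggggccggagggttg
The GGAA core occurred 4 times upstream of Tph2, 1 time upstream of Slc6a4 and 2 times upstream of Fev, counting both strands. It occurs in 91.9% of the 32851 promoter windows of this length, with a mean of 2.65 matches, so its presence does not set these genes apart. The longer ETS sequence CCGGAAGT was in none of the 3 windows and is in 2.17% of all windows. The GATA core occurred 1 time in each of the 3 windows and is in 51.9% of all windows. The letters AGATAA, which contain this core, occurred 1 time each upstream of Tph2 and Fev, against 9.49% of all windows. TATAAA occurred 1 time upstream of Tph2, against 11.8%. The windows also differed in base composition, with 40.9% G and C upstream of Tph2, 62.6% upstream of Slc6a4 and 68.3% upstream of Fev.

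Levels are counts scaled to a common library size with TMM factors (CPM), and 3 counts, taken as the level of detection, correspond to 0.285 to 0.366 CPM depending on the mouse. The expected counts summed to between 8140777 and 10528602 per mouse. Tfam ranged over 40.3 to 45.5 CPM in controls and over 32.7 to 33.2 CPM in MitoParks, in the direction the genotypes give. The dopaminergic markers Th and Slc6a3 were counted in all 6 mice, but littermate control 3 stood apart with 383.4 CPM of Slc6a3 against 65.3 and 72.6 CPM in the other two controls. MitoPark 3 stood apart as well: 35 of the 14568 genes tested, or 0.24%, were more than 2-fold above the next mouse there, on CPM + 0.5, against 3 to 11 genes in each of the other mice.

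Tph2, the enzyme of serotonin synthesis in neurons, was high in a single mouse. Its level was 0.446, 0.285 and 0.782 CPM in littermate controls 1 to 3, from 4, 3 and 8 counts. In MitoParks 1 and 2 it was 0.244 and 0.303 CPM, from 2 and 3 counts, and in MitoPark 3 it was 23.4 CPM, from 206 counts, with a 95% Poisson interval of 20.3 to 26.8 CPM that covers counting error only. MitoPark 3 was 29.9-fold above the highest of the other 5 mice, and the other two MitoParks lay within or below the range of the controls, so the groups overlapped. Littermate controls averaged 0.504 ± 0.254 CPM and MitoParks 7.97 ± 13.3 CPM (SD, n = 3 each), and the MitoPark mean without MitoPark 3 was 0.273 CPM. The fitted log2 fold change of 3.94 (SE 1.5) therefore rested on 1 mouse.

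The serotonin transporter, Slc6a4, had the same pattern at a lower level. It had 0, 2 and 1 counts in littermate controls 1 to 3, 1 count in MitoParks 1 and 2 each, and 83 counts in MitoPark 3. In CPM these were 0, 0.19 and 0.0977 in controls and 0.122, 0.101 and 9.41 in MitoParks, with a Poisson interval of 7.5 to 11.7 CPM in MitoPark 3. All 5 other mice were at or under 3 counts, so MitoPark 3 was at least 25.7-fold higher than any of them, taking 3 counts in each library as the level of detection. Controls averaged 0.0959 ± 0.095 CPM and MitoParks 3.21 ± 5.37 CPM (SD, n = 3 each). The fitted log2 fold change was 4.82 (SE 1.75), a value that depends on the prior count because the controls were at the detection level.

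Fev, the serotonergic transcription factor, had few counts and was also highest in MitoPark 3. Its counts were 0, 2 and 1 in littermate controls and 3, 2 and 16 in MitoParks, or 0, 0.19 and 0.0977 CPM against 0.366, 0.202 and 1.81 CPM. By the same detection level, MitoPark 3 was at least 4.96-fold higher than any other mouse, with a Poisson interval of 1.04 to 2.95 CPM. Fev fell under the filter on low values, which asks for a mean above 1 CPM in at least 1 group, and was not tested. It was the only one of the 10 genes whose groups did not overlap, but that separation came from MitoPark 2 and littermate control 2, which both had 2 counts and differed only through their library sizes. Of the 14568 genes tested, 4.71% had groups that did not overlap.

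**Figure D1:**
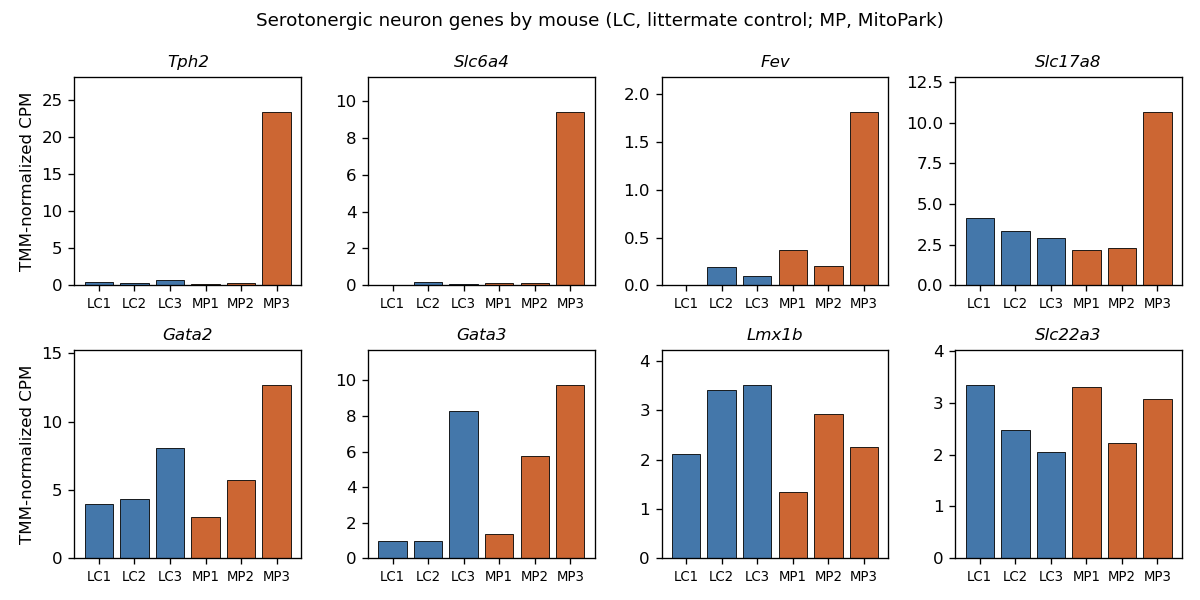
Bars give the TMM-normalized CPM (y axes, linear from 0, scaled per gene) of 8 genes used as markers of serotonergic neurons in each mouse (x axes; LC, littermate control; MP, MitoPark). Tph2, Slc6a4 and Fev rise above the other 5 mice in MP3, Slc17a8 does so by 2.59-fold, and Gata2, Gata3, Lmx1b and Slc22a3 do not separate MP3 in the same way.

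Of the 10 genes, 9 were tested and 2, Tph2 and Slc6a4, passed the cutoffs in edgeR's quasi-likelihood test, which were a p below 0.05 without adjustment and a change of more than 1.5-fold. Over all genes tested, 84 passed, or 0.577%, and none passed at an adjusted p below 0.05, with 161 genes at an unadjusted p below 0.05 and 0 adjusted calls by DESeq2 as well. The calls of Tph2 and Slc6a4 belong to the contrast that the choice of these genes already knew, and nothing is read from them. Without MitoPark 3, Slc6a4 and Fev were at or under 3 counts in every remaining mouse, and Tph2, at 2 to 8 counts, fell under the filter. In bulk tissue, more serotonergic cells in a sample and more RNA per cell cannot be told apart.

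Other markers of serotonergic neurons moved with these 3 genes only in part. The list holds 7 genes (Gata2, Gata3, Lmx1b, Slc22a3, Slc17a8, Gchfr and Maob), of which 3 (Gata2, Gata3 and Slc17a8) were highest in MitoPark 3. Slc17a8, a vesicular glutamate transporter carried by many raphe neurons and named here after its values were seen, was at 4.12, 3.32 and 2.93 CPM in controls and at 2.19, 2.33 and 10.7 CPM in MitoParks, so MitoPark 3 was 2.59-fold above the next mouse. Gata2, a transcription factor of serotonergic and of GABAergic midbrain neurons, was at 4.01, 4.37 and 8.11 CPM in controls and at 3.05, 5.76 and 12.7 CPM in MitoParks. Gata3, a related factor named after its values were seen, was at 9.75 CPM in MitoPark 3 but also at 8.31 CPM in littermate control 3. Maob, the monoamine oxidase of serotonergic neurons and astrocytes, was lowest in MitoPark 3, at 57.9 CPM against 60.8 to 85.5 CPM in the other mice. Lmx1b was at 2.12, 3.42 and 3.52 CPM in controls and at 1.34, 2.93 and 2.27 CPM in MitoParks. Slc22a3 was at 3.06 CPM in MitoPark 3 and highest in littermate control 1, at 3.34 CPM. Gchfr was at 0.794 CPM in MitoPark 3 and highest in MitoPark 1, at 0.853 CPM. The sum over the 7 genes, most of it Maob, ran from 77.7 to 100.6 CPM in controls and from 76.1 to 97.2 CPM in MitoParks, whereas the sum of Tph2, Slc6a4 and Fev was 0.446 to 0.977 CPM in controls, 0.731 and 0.607 CPM in MitoParks 1 and 2, and 34.6 CPM in MitoPark 3. Whether raphe tissue was included in the sample of MitoPark 3 was not tested, since no measurement other than the RNA marks the dissection.

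Markers of neighbouring brainstem groups were examined in the same libraries. The noradrenergic genes Dbh, Phox2a and Slc6a2 were at or under 3 counts in all 6 mice, MitoPark 3 included, with sums of 0 to 0.223 CPM in controls and 0.101 to 0.244 CPM in MitoParks. The hindbrain Hox genes, led by Hoxa2 and Hoxa3, summed to 0.340 CPM in MitoPark 3 and were highest in MitoPark 2, at 3.34 CPM, a mouse with 3 counts of Tph2. Cholinergic genes, led by Slc5a7 and Chat, summed to 4.99 CPM in MitoPark 3 against 3.91 to 9.78 CPM in the other mice. The genes of the habenula and interpeduncular nucleus, led by Tac2 and Chrnb3, summed to 40.9 CPM in MitoPark 3 against 34.5 to 67.3 CPM elsewhere. None of these 4 sums was highest in MitoPark 3. Chrna2, a nicotinic receptor subunit outside these lists and named after its values were seen, was at 6.12 CPM there against 0 to 0.404 CPM. Whether these values bear on raphe tissue was not tested.

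By the likeness of the pattern over the 6 mice, 8 tested genes followed the mean of scaled Tph2, Slc6a4 and Fev most closely, with a Pearson r on log2(CPM + 0.5) between 0.987 and 0.996. These were Gm17644, Gtf3a, Ccdc82, Kcnq1ot1, Pigh, Mfsd7b, Zfp747 and Gm17821. The closest, Gm17644, was at 155.1 CPM in MitoPark 3 and at 44.2 to 51.7 CPM in the other mice, and Gtf3a, a transcription factor for 5S ribosomal RNA genes, was at 19.4 CPM against 15.6 to 16.1 CPM. Each likeness rests on MitoPark 3, and both sides of each correlation come from the same 6 libraries. Kcnq1ot1, a long nuclear RNA, was at 1159 CPM in MitoPark 3 against 412.4 to 480.8 CPM in the others, and the nuclear RNA Malat1 was also highest there, at 4449 CPM against 844.5 to 2046 CPM. Their part in the serotonergic values was not tested.

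Among the receptors, per kilobase of the longest coding transcript, the order in littermate controls ran from Htr2c at 33.3 ± 7.10 CPM per kb, through Htr7 at 12.3 ± 1.85, Htr1a at 4.30 ± 0.312, Htr2a at 1.91 ± 0.294, Htr4 at 1.1 ± 0.438 and Htr1b at 0.937 ± 0.619, to Htr5b at 0.409 ± 0.242 (SD, n = 3 each). Htr2c, Htr7, Htr1a and Htr2a were each separated from the next receptor by more than the larger of the 2 SDs, whereas the neighbours Htr4 and Htr1b, and Htr1b and Htr5b, were not. The serotonergic neuron genes followed in controls at 0.192 CPM per kb for Tph2, 0.0644 for Fev and 0.0343 for Slc6a4. In MitoPark 3, Tph2 was at 8.90 CPM per kb and Slc6a4 at 3.37 CPM per kb, which placed Tph2 between the Htr7 and Htr1a levels of that mouse, 10.4 and 4.6 CPM per kb.

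**Figure D2:**
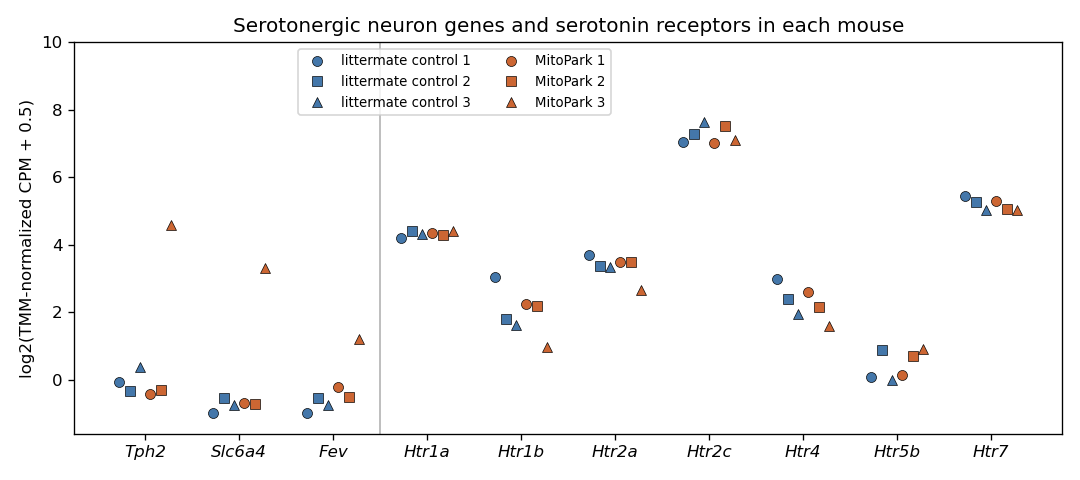
Each symbol is 1 mouse, with log2(TMM-normalized CPM + 0.5) on the y axis and the 10 genes on the x axis; colours mark littermate controls and MitoParks. MitoPark 3 lies far above the other mice for Tph2, Slc6a4 and Fev, at 23.4, 9.41 and 1.81 CPM, and among the others for Htr1a, Htr2c and Htr7.

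The receptors did not follow the serotonergic neuron genes. Htr1a, the Gi-coupled receptor that is also the autoreceptor on serotonergic cell bodies, was the steadiest of the 10 genes. Controls held 17.8, 20.6 and 19.4 CPM of it, and MitoParks 19.8, 19.0 and 20.6 CPM, so the highest mouse was 1.16-fold above the lowest. MitoPark 3 stood at the top of this narrow range, beside littermate control 2. The group levels of Htr1a were 19.3 ± 1.40 and 19.8 ± 0.815 CPM (SD, n = 3 each), a log2 fold change of 0.04 (SE 0.12).

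Htr1b, the Gi-coupled receptor found on axon terminals of serotonergic and striatal neurons, varied most among the receptors. Its levels were 7.80, 2.95 and 2.54 CPM in controls and 4.27, 4.04 and 1.47 CPM in MitoParks. Littermate control 1 was high and MitoPark 3 low, with a 5.29-fold span, and in between MitoParks 1 and 2 lay above littermate controls 2 and 3. With 4.43 ± 2.92 CPM in controls and 3.26 ± 1.55 CPM in MitoParks (SD, n = 3 each), the log2 fold change was -0.42 (SE 0.50), and it was 0.25 without littermate control 1. Htr1b was also the only one of the 10 genes with expected counts that were not whole numbers, in 5 mice, which RSEM gives where reads match more than 1 place, so its level is less certain.

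Htr2a, the Gq-coupled receptor most abundant in cortex, was at 12.6, 9.78 and 9.68 CPM in controls and at 10.6, 10.7 and 5.78 CPM in MitoParks. MitoPark 3 lay below the other 5 mice, with 51 counts against 87 to 113. The group levels were 10.7 ± 1.65 and 9.04 ± 2.82 CPM (SD, n = 3 each), and the log2 fold change of -0.24 (SE 0.25) became -6e-04 without MitoPark 3. The cortical and hippocampal markers, led by Slc17a7 and Prox1, were also lowest in MitoPark 3, with a sum of 42.3 CPM against 48.9 to 84.8 CPM, and their part in the Htr2a level was not tested.

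Htr2c, the Gq-coupled receptor known for its abundance in choroid plexus and for its expression by GABAergic neurons of the SN, was the most abundant of the 10 genes. Controls held 131, 156.8 and 199.6 CPM of it, and MitoParks 128.4, 182.7 and 137.3 CPM. The groups overlapped throughout, with 162.5 ± 34.7 against 149.4 ± 29.1 CPM (SD, n = 3 each) and a log2 fold change of -0.12 (SE 0.18), which was 0.06 without littermate control 3. The choroid plexus genes, led by Ttr and Clic6, summed to 182.4 CPM in littermate control 2 and to 20.8 CPM in littermate control 3, the mouse with the most Htr2c. The GABAergic genes, led by Gad2 and Gad1, summed to 726.5 to 1068 CPM in controls and to 760.4 to 1129 CPM in MitoParks. Their sum was highest in MitoPark 1, the mouse with the least Htr2c. The part of choroid plexus or of GABAergic neurons in the Htr2c level was not tested.

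Htr4, a Gs-coupled receptor of the basal ganglia and hippocampus, had the same highest and lowest mouse as Htr1b and Htr2a. It was at 7.35, 4.75 and 3.32 CPM in controls and at 5.61, 3.94 and 2.49 CPM in MitoParks. Littermate control 1 was highest and MitoPark 3 lowest, and the groups overlapped. The group levels were 5.14 ± 2.04 and 4.02 ± 1.56 CPM (SD, n = 3 each), and the log2 fold change of -0.35 (SE 0.37) became -0.01 without littermate control 1. Striatal projection markers, led by Penk and Tac1, did not share this order, with sums of 306.4, 349.4 and 242.8 CPM in controls and 346.5, 288.5 and 316.1 CPM in MitoParks. Their part in the Htr4 level was not tested.

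Htr7, the Gs-coupled receptor of thalamus and hypothalamus, was at 43.4, 37.8 and 32.1 CPM in controls and at 38.9, 32.7 and 32.1 CPM in MitoParks. The highest mouse was 1.36-fold above the lowest. Group levels of 37.8 ± 5.69 and 34.5 ± 3.77 CPM (SD, n = 3 each) gave a log2 fold change of -0.13 (SE 0.15), or -0.01 without littermate control 1. The thalamic markers, led by Rora and Tcf7l2, were highest in littermate control 3, at 336.7 CPM, where Htr7 was among its lowest levels. The hypothalamic peptide genes, led by Pmch and Hcrt, were highest in MitoPark 1 and littermate control 1, at 1725 and 1140 CPM, and these were the 2 mice with the most Htr7 and the most Htr4. Littermate control 1 had the highest level of 4 of the 7 receptors (Htr1b, Htr2a, Htr4 and Htr7). The part of thalamic or hypothalamic tissue in these levels was not tested.

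Htr5b, a receptor that rodents express in the habenula and raphe, was near the detection level in every mouse. Its counts were 5, 14 and 5 in controls and 5, 11 and 12 in MitoParks, or 0.557, 1.33 and 0.489 CPM against 0.610, 1.11 and 1.36 CPM. MitoPark 3 was highest but stood only marginally above littermate control 2. The group levels were 0.792 ± 0.467 and 1.03 ± 0.383 CPM (SD, n = 3 each), and the log2 fold change was 0.36 (SE 0.53).

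Over the 9 genes tested, 4 log2 fold changes were above 0 and 5 below 0, with a median of -0.12 beside a median of -0.0047 over all genes tested. Of those above 0, Tph2, Slc6a4 and Htr5b averaged more than 1 CPM only in MitoParks. They passed the filter on low values through that group alone, which fixes their direction, so these signs and the median are not read. All 7 receptors were within 0.5 of 0 on the log2 scale, with groups that overlapped. The SEs ran from 0.12 for Htr1a to 0.53 for Htr5b, and the absence of a difference is not shown.

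**Figure D3:**
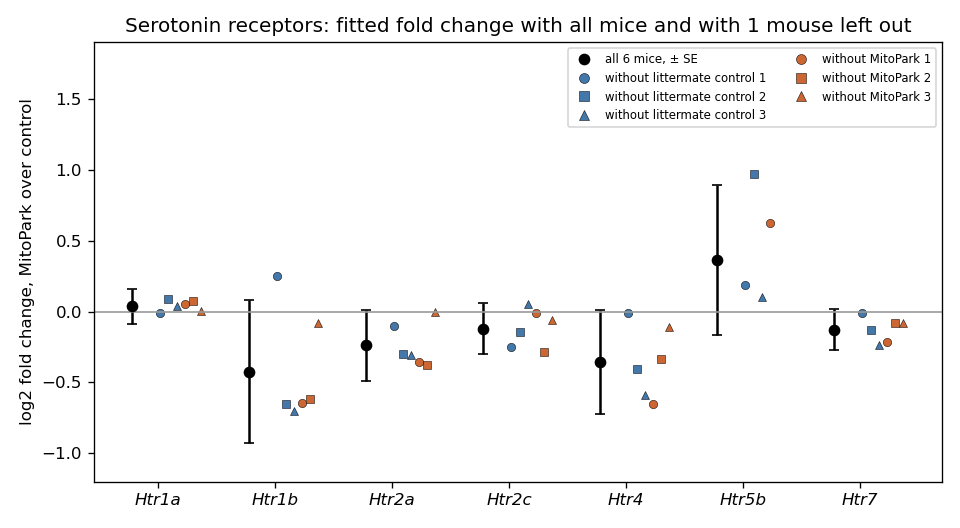
The y axis gives the fitted log2 fold change of MitoParks over littermate controls for the 7 receptors on the x axis, with all 6 mice (black, ± SE) and with 1 mouse left out (coloured symbols). Htr1b moves from -0.42 to 0.25 without littermate control 1, and Htr5b, which passed the filter in 4 of the 6 cases, ranges from 0.106 to 0.972.

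The remaining genes of serotonin signalling were followed in 5 lists of 34 genes, of which 27 were tested. None passed the cutoffs in edgeR's quasi-likelihood test, 0 had an unadjusted p below 0.05, and DESeq2 called 0 as well. Over all genes tested, 0.577% passed the cutoffs, so a count of 0 among 27 genes is not read as a result about serotonin signalling. The smallest p was 0.0738, for Ddc, with an adjusted p of 0.999 by Benjamini-Hochberg over all genes. The fold changes were above 0 for 12 genes and below 0 for 15, with a median of -0.01 on the log2 scale. The paper states that its control animals were taken from MitoPark litters or from those of the parental strain. The p-values set the difference between the groups against the spread between these mice. Since the litter of each mouse here is not given, genotype and litter cannot be told apart.

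Of the other receptors, 4 of 7 were tested, and their median log2 fold change was 0.30 with 0 past the cutoffs. The control mean was 0.982 CPM for Htr1f, under the 1 CPM of the filter, and 0.9985 CPM for Htr3a, at its limit. A gene kept only through the MitoPark mean lies above 0 by that selection, so the direction of this median is not read. Htr5a, a Gi-coupled receptor, was steady at 15.2 to 15.8 CPM in controls and 14.3 to 18.1 CPM in MitoParks. Htr1d, a further terminal receptor, was at 2.65 ± 1.00 and 3.49 ± 1.31 CPM (SD, n = 3 each). Htr3a, a subunit of the only serotonin-gated ion channel, was at 2.23, 0.475 and 0.293 CPM in controls and at 1.22, 1.52 and 1.25 CPM in MitoParks. Htr1f, another Gi-coupled receptor, was at 0.982 ± 0.129 and 1.12 ± 0.611 CPM (SD, n = 3 each). Htr2b, Htr3b and Htr6 fell under the filter.

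Among 8 genes of synthesis and its biopterin cofactor, 6 were tested, with a median log2 fold change of -0.04. Ddc, the decarboxylase that makes serotonin and dopamine alike, was at 73.5, 76.0 and 187.5 CPM in controls and at 56.1, 72.4 and 83.1 CPM in MitoParks, with a log2 fold change of -0.67 (SE 0.33) and littermate control 3 far above the other mice. Qdpr, which regenerates the cofactor, was at 318.3 ± 108.9 and 316.4 ± 48.3 CPM (SD, n = 3 each). Pcbd1 and Pts, of the same cofactor route, had log2 fold changes of -0.06 and 0.01. Tph1, the tryptophan hydroxylase of pineal and gut, had 1, 10 and 3 counts in controls and 0, 1 and 0 in MitoParks. Its groups did not overlap, but littermate control 1 and MitoPark 2 had 1 count each. Tph1 was not high in MitoPark 3.

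Of 8 genes of storage, uptake and breakdown, 6 were tested, with a median log2 fold change of -0.07. Slc18a2, the vesicular transporter that serotonergic and dopaminergic neurons share, was at 93.7, 122.6 and 242.0 CPM in controls and at 73.4, 124.9 and 110.9 CPM in MitoParks. Both genes belong to the list of dopaminergic markers too, which is led by Aldh1a1 and Slc18a2 and whose sums were 454.9, 547.8 and 1486 CPM in controls and 302.1, 554.8 and 545.8 CPM in MitoParks. Ddc, Slc18a2 and this sum were all highest in littermate control 3 and lowest in MitoPark 1. Maoa and Aldh2, which break serotonin down, had log2 fold changes of -0.04 and 0.02, and Maob had one of -0.14.

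All 9 lineage transcription factors were tested, with a median log2 fold change of 0.05. Nkx2-2 and Insm1, factors of serotonergic and other neuron precursors, had log2 fold changes of 0.05 and -0.13. Gata2 had a value of 0.38 (SE 0.47) and En1, a midbrain and anterior hindbrain factor that dopaminergic neurons also need, one of -0.60 (SE 0.71). En1 was at 3.56, 3.23 and 16.5 CPM in controls and at 1.22, 6.07 and 8.05 CPM in MitoParks, and so was highest in littermate control 3. Of the receptor partners, S100a10 (p11), which binds the receptors of Htr1b and Htr4, was at 11.2 ± 4.27 and 8.09 ± 1.03 CPM, and Mpdz, a scaffold for the Htr2c receptor, was at 90.2 ± 2.57 and 84.0 ± 7.85 CPM (SD, n = 3 each).

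**Figure D4:**
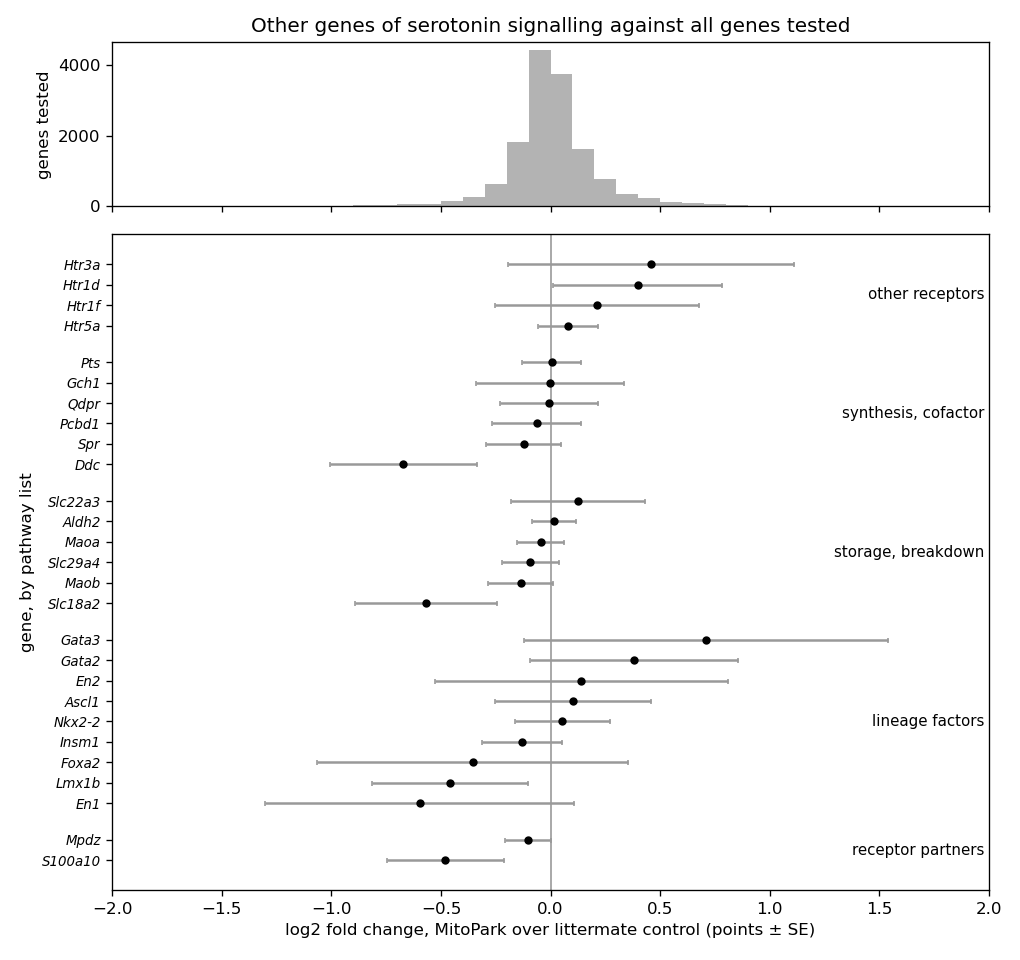
The lower panel gives the log2 fold change (x axis, points ± SE) of the 27 tested genes of serotonin signalling outside the 10 genes, by list, and the upper panel the number of genes tested per 0.1 of log2 fold change, shown from -2 to 2. The points run from -0.67 for Ddc to 0.71 for Gata3, and none of the genes passed both cutoffs; Ddc, En1 and Gata3 were beyond 1.5-fold but missed the p.

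The make-up of the samples differed between mice within both groups. Oligodendrocyte markers, led by Mbp and Mobp, summed to 3602, 5646 and 10220 CPM in controls and to 5413, 6811 and 8947 CPM in MitoParks. The sum of 5 astrocyte markers, led by Slc1a3 and Gfap, was highest in MitoPark 3, at 1868 CPM against 1263 to 1727 CPM. Only 2 of the 5 genes were highest there, Aldh1l1 and Gfap, the latter at 549.8 CPM against 171 to 355.8 CPM. Slc1a3 was at 538.4 CPM in MitoPark 3 against 437.4 to 687.1 CPM in the other mice. Microglial markers, led by Csf1r and Cx3cr1, summed to 132.4 to 174.2 CPM over all mice. The cerebellar list, led by Calb1 and Cbln3, summed to 168.9 CPM in MitoPark 3 against 203.1 to 295.2 CPM, nearly all of it Calb1, which other regions express as well. Cbln3, a granule cell gene, was instead at 28.3 CPM in littermate control 3 and 25.5 CPM in MitoPark 2, against 0.760 to 3.68 CPM in the other mice. The sum of Tph2, Slc6a4 and Fev was the only one that was more than 2-fold above the next mouse in MitoPark 3.

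**Figure D5:**
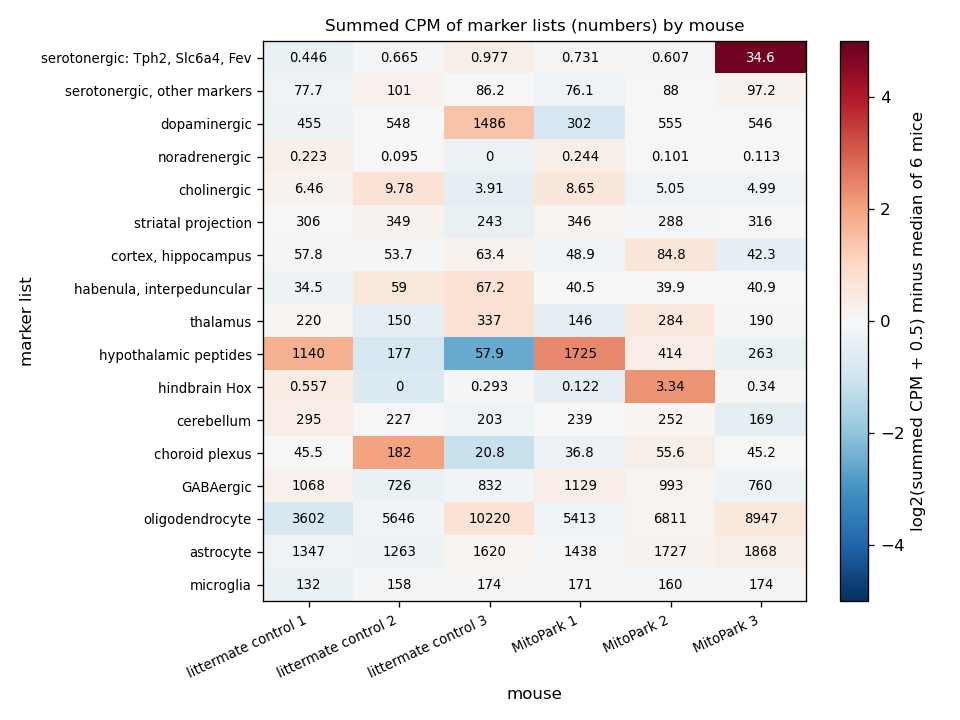
Each cell gives the summed CPM of a marker list (y axis) in a mouse (x axis), coloured by log2(sum + 0.5) minus the median of the 6 mice. The sum of Tph2, Slc6a4 and Fev stands out at 34.6 CPM in MitoPark 3, hypothalamic peptides at 1725 CPM in MitoPark 1 and 1140 CPM in littermate control 1, and hindbrain Hox genes at 3.34 CPM in MitoPark 2.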

How the data were processed

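RNA-seq was analysed in 3 MitoParks and 3 littermate controls. The authors deposited expected counts per gene, made with Bowtie2 2.1.0 and RSEM 1.2.15 per the labels, without normalization. The labels name the build hg38 although the symbols are mouse, and no coordinates from the deposited files were used. The strand setting of the counting is not given in the sources used here. The columns of 0 further samples were left out, and the columns of treated samples were matched to the MitoPark labels by number. Fractional values made up 11.91% to 14.11% of each column. Values were rounded and scaled by TMM, genes had to average more than 1 CPM in either group, and the quasi-likelihood test of edgeR 4.0.16 (R 4.3.3) was run with group as the term. The cutoffs were p below 0.05 before adjustment and a change of more than 1.5-fold, with Benjamini-Hochberg values over the 14568 genes tested. The procedure was tested on simulated data.

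The 10 genes, the lists of pathway and marker genes and the tests were chosen with earlier results of these data known. Named were all 10 genes, pathway genes past the cutoffs, up to 4 genes per pathway list with the highest mean CPM, the sum and the 2 highest genes of each marker list, and the 8 genes most like Tph2, Slc6a4 and Fev; other genes were named after their values were seen. Some marker genes are not reported here and were left out of the sums. CPM per kb used GENCODE M21 transcripts, and promoter windows came from RefSeq, where 8 of the 10 genes were matched. Within groups, every pair of mice differed beyond counting noise (lowest chi-square over its degrees of freedom, 10.2). Alternatives were DESeq2 1.42.0, other normalizations and filters, a block for the replicate number, and fits without each mouse. Intervals cover counting error only. Figures used Python 3.11.15 and matplotlib 3.10.9.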

Additional observations from a re-analysis of the deposited data

How the results depend on the processing

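Over 14 alternatives, 109 of 113 fold changes of the 9 genes tested stayed on the same side of 0, and Fev was not fitted. The number of genes past the cutoffs, 84, was 176 without a filter on low counts and ranged from 62 without MitoPark 3 to 219 without littermate control 3, with 133 without littermate control 1 and 217 without MitoPark 2. The number of pathway genes past them, 0, was 2 without a filter (Ddc at -0.67 and Tph1 at -3.25 on the log2 scale) and ranged from 0 to 4 with 1 mouse left out, the 4 being Ddc, Htr3a, S100a10 and Slc18a2 without littermate control 1. Without littermate control 2 it was 1 (Ddc), and without littermate control 3 it was 1, Gata3 at 2.52. With the replicate number as a block, 126 genes and 1 pathway gene (Gata3, at 0.98) passed. The deviations of mice with the same number correlated at 0.352, -0.0695 and 0.277, so the numbers were not taken as pairs. Tph2 and Slc6a4 could not be tested without MitoPark 3 or with CPM above 1 required in 3 mice, since the filter removes them. Without a filter and without MitoPark 3, an alternative added after the data were seen, Tph2 fell to -0.84, from 2 to 8 counts per mouse. Among the other alternatives, all of which kept MitoPark 3, Tph2 passed the cutoffs in 8 of 11 and Slc6a4 in 9 of 11. DESeq2 and the fit without littermate control 1 were among the exceptions for both, and nothing is read from these calls. The cause of these changes was not tested. With 3 mice per group, 1 mouse could decide the sign of Htr1a (-0.0087 without littermate control 1), Htr1b and Htr2c, and values near 3 counts carry no fold.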

Other observations

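Beyond the serotonergic neuron genes, MitoPark 3 had single high values of other genes, all named after their values were seen. Chrna2, a nicotinic receptor subunit known from restricted neuron groups such as the interpeduncular nucleus, was at 6.12 CPM there, from 54 counts, and at 0 to 0.404 CPM in the other mice, and it ranked next after Tph2 and Slc6a4 by the ratio to the next mouse on CPM + 0.5. Pax3, a transcription factor of the dorsal neural tube, was at 2.38 CPM, from 21 counts, against 0 to 0.607 CPM. Muc6, a gel-forming mucin, was at 16.3 CPM against 2.56 to 4.75 CPM. Lars2, the mitochondrial leucyl-tRNA synthetase, was at 1862 CPM against 343.5 to 657.5 CPM, and the ribosomal RNA entry Rn45s was at 9031 CPM against 1276 to 4542 CPM. In the comparison of the groups by edgeR's quasi-likelihood test, Chrna2 and Pax3 were among the 84 genes past the cutoffs, with controls at or under 3 counts. Muc6, Lars2 and Rn45s did not pass. MitoParks 1 and 2 were at 0.366 and 0.404 CPM of Chrna2 and at 0 and 0.607 CPM of Pax3, so both calls rest on MitoPark 3. These genes were picked for their values in that mouse, and nothing is read from the calls.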
